A study of Mus musculus with 9 samples.

Results

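In the glioma arm of a co-culture experiment, CT2A-TRP2-B2mKO cells were cultured together with OT-1 T cells and OVA-loaded macrophages. The 3 samples of sorted CD8+ T cells from these cultures were compared with 3 samples from co-cultures of OT-1 T cells and OVA macrophages only, chosen by their labels out of 9 samples in the series. The remaining 3 samples, OT-1 T cells cultured alone, served as the background and entered the fit. All 750 genes of the deposited table were tested, and the comparison was read on the 384 genes whose mean level reached 6.64 log2 units, or about 100 normalized counts, in either co-culture.

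The T cell receptor transgene of OT-1 mice recognises an ovalbumin (OVA) peptide shown on MHC class I. All 9 samples began as splenocytes of these mice, grown with 1 µM OVA peptide and IL-2 at 50 IU per ml and then purified as CD8+ cells. The OT-1 cells alone are described as naive in one place of the deposit, although its growth protocol has them activated with peptide like the rest. The macrophages came from bone marrow monocytes and were loaded with 10 µM of the same peptide, and both co-cultures held 5 T cells per macrophage by the labels. In 1 of them, 10 T cells per glioma cell were present as well. CT2A is a mouse glioma line, and the form used here carries TRP2 and lacks β2m, the chain that MHC class I needs to reach the cell surface. After 24 h the CD8+ cells were sorted, so RNA was measured in the T cells and in whatever other cells passed the sort. The labels do not say whether the replicates came from separate mice, so the p-values speak only to the spread among these samples, which may be technical.

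A CD8+ T cell that meets its antigen on a macrophage changes its receptors for cytokines, chemokines and other cells along with its killing genes. Inhibitory receptors such as CTLA-4 and PD-1 limit that activation, costimulatory receptors of the TNF receptor family extend it, and CCR7 and the IL-7 receptor are known for the circulation and survival of naive and memory T cells. Interferon receptors and STAT proteins carry signals from cytokines released by neighbouring cells to the nucleus.

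Depth differed between the samples, and 1 sample stood apart. The low values of each sample fell in whole steps, from which raw totals of about 697695 to 1185842 counts were recovered for 8 samples and about 132083 for macrophage replicate 2. At 100 normalized counts the counting error alone was 25.2% in that replicate and 8.25% to 11.7% in the others. Its median over all 750 genes was 7.80 log2 units, against 6.30 and 6.48 in the other macrophage samples and 6.55 to 6.88 with glioma cells. The median over the 384 kept genes was 9.62 in that replicate and 9.56 and 9.63 in its partners. The excess thus lay mainly in genes under the level, but not only there. Some kept genes were higher in that replicate too, such as Cd83 at 9.18 against 7.82 and 8.11. Others were lower, such as Bcl2 at 9.12 against 9.57 and 9.66. Calls were therefore also made without macrophage replicate 2.

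The inhibitory receptor Ctla4 was 3.26 times as high, the homing receptor Ccr7 3.16 times, the integrin chain Itgb3 2.50 times and the interferon-γ receptor chain Ifngr1 2.40 times as high with glioma cells as without. The IL-33 receptor Il1rl1 and the chemokine Ccl1 were 2.91 and 2.10 times as high without them. Il1rl1 was kept only through the macrophage samples, so its direction was fixed once it was kept. Its difference was smaller without macrophage replicate 2. In limma's moderated test over all 750 genes, with Benjamini-Yekutieli adjustment, 20 genes rose (2.67% of those tested) and 4 fell (0.533%) at an adjusted p under 0.05, and all 24 were among the kept genes. Without macrophage replicate 2, 29 of 750 genes rose (3.87%) and 5 fell (0.667%), and 23 of the 24 genes were called again.

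**Figure D1:**
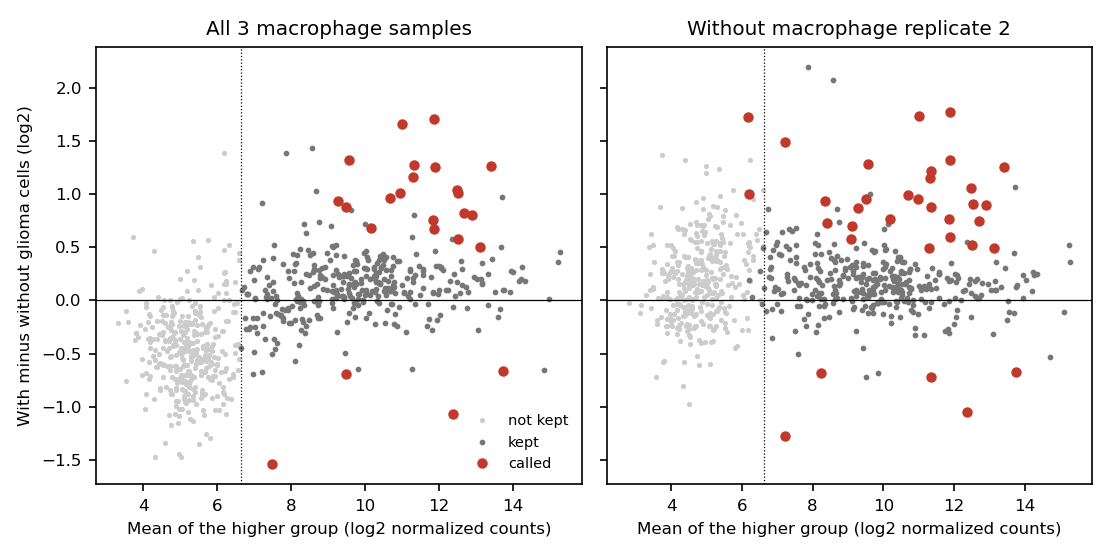
Difference between the co-cultures with and without glioma cells (vertical axis, log2) against the mean level of the higher group (horizontal axis, log2 normalized counts) for the 750 genes, with all 3 macrophage samples (left) and without replicate 2 (right). Red points are called genes, dark points other genes kept in the comparison of all samples, pale points genes not kept, and the dotted line marks 6.64; on the left the genes that were not kept lie mostly below 0, with a median of -0.47, and on the right their median is 0.18.

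The kept genes as a whole lay slightly higher with glioma cells, with a median difference of 0.14 log2 units and 282 of 384 above 0. The sums of normalized counts ran from 932308 to 950609 with glioma cells and from 836495 to 842064 without. Centring each sample on its median over the kept genes moved that median to -0.04 and gave 12 higher and 6 lower genes, and quantile normalization gave 15 and 9. The higher share of the calls was thus 83.3% as deposited, 66.7% after centring and 62.5% after quantile normalization. Of the 750 genes, 152 had all 3 glioma samples above all 3 macrophage samples (20.3%) and 35 had them below (4.67%). An exact permutation test of 3 samples against 3 cannot go below a two-sided p of 0.10, which these genes reached.

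The number of calls rested on the whole set of 9 samples, since leaving out any 1 sample other than macrophage replicate 2 left 11 to 15 calls, and the fit on the 6 co-culture samples alone called 0 genes. In limma's fit of those 6 samples, 106 genes had an unadjusted p under 0.05 and 18 passed Benjamini-Hochberg adjustment. Of the 24 genes, 11 were called in each of the 9 fits that left out 1 sample, namely Ctla4, Ccr7, Itgb3, Tnfaip3, Ifngr1, Ifitm1, Ikzf2, Ifitm2, Il12rb2, Il7r and Ccl1. The other 13 lost the call in 1 to 9 of those fits. With the replicate number as a block, limma kept 10 of the 24 calls, and of these 11 genes Ccr7 (adjusted p = 0.0548) and Il12rb2 (adjusted p = 0.0665) were lost. None of the 24 changed direction under any of the 23 alternative fits.

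**Figure D2:**
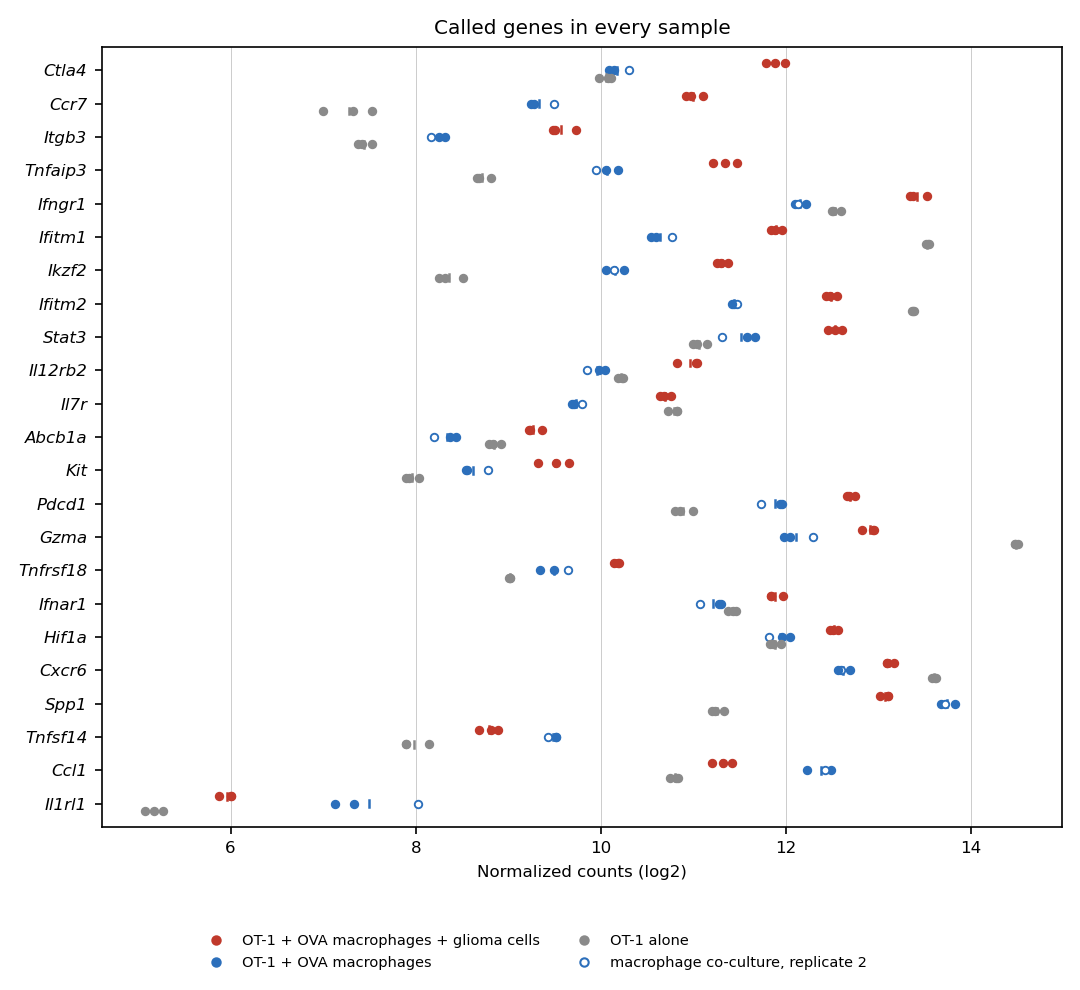
Levels of 23 of the 24 called genes (horizontal axis, log2 normalized counts) in all 9 samples, ordered by their difference between the co-cultures; points are samples, short lines are group means, and the open blue circle is macrophage replicate 2. For every gene shown the red points (with glioma cells) lie clear of the blue points (macrophages only), whereas the grey points (OT-1 alone) lie below both, between them or above both, and overlap the blue points for Ctla4 and Hif1a and the red points for Il7r.

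Among inhibitory receptors, Ctla4 and Pdcd1 rose, beside 20 among all 384 kept genes, and the other 8 of 10 kept members did not pass the test. Ctla4, which encodes the CTLA-4 receptor for CD80 and CD86, stood at 11.88, 11.78 and 11.99 log2 units with glioma cells and at 10.09, 10.30 and 10.14 without. The groups lay far apart, and the macrophage samples were close to the 9.98 to 10.11 of OT-1 cells alone. The difference was 1.71 (SE 0.09, limma adjusted p = 0.00154), the highest of the 384 genes, and 1.77 without macrophage replicate 2. Pdcd1, the gene of PD-1, had levels of 12.68, 12.66 and 12.75 against 11.96, 11.73 and 11.94. Its difference of 0.82 (SE 0.09, limma adjusted p = 0.0176) held without macrophage replicate 2, at 0.75, and lost the call in 7 of the 9 fits without 1 sample. Havcr2, which encodes TIM-3, and Cd200r1 differed by 0.46 and 0.43, and neither passed, with limma adjusted p of 0.175 and 0.425. The list ranged from -0.25 to 1.71 with a median of 0.37, beside 0.14 for all kept genes. These medians were 0.24 and 0.16 without macrophage replicate 2.

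All 8 kept costimulatory receptors had positive differences, from 0.08 to 0.68, beside 282 of all 384 kept genes. Of the 8, 1 passed the test, beside 24 among all 384 kept genes. Tnfrsf18 (GITR, a TNF receptor family member) had levels of 10.14, 10.19 and 10.20 with glioma cells and 9.34, 9.65 and 9.49 without. The groups did not overlap, and the difference was 0.68 (SE 0.09, limma adjusted p = 0.0347), lost in 8 of the 9 fits without 1 sample. Tnfrsf4 (OX40) gave 9.20, 9.14 and 9.03 against 8.47, 8.98 and 8.38, with macrophage replicate 2 nearest to the glioma samples. It was called without that replicate, at 0.70 (limma adjusted p = 0.0248), and not with it, at 0.51 (adjusted p = 0.832). Tnfrsf9 (4-1BB) and Tnfrsf1b (a TNF receptor) differed by 0.42 and 0.41 and did not pass.

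The ligands of these families showed no common direction, with a median difference of 0.10 over 10 kept members, and 0.18 without macrophage replicate 2. Tnfsf14, which encodes the TNF family ligand LIGHT, fell to 8.81, 8.68 and 8.89 with glioma cells from 9.51, 9.43 and 9.52. The difference of -0.69 (SE 0.10, limma adjusted p = 0.0447) lay just inside the threshold, and without macrophage replicate 2 it was -0.72 with an adjusted p of 0.0512. The call was lost in all 9 fits that left out a sample. Tnfsf4 (the OX40 ligand) stood at 8.85, 8.96 and 8.44 against 7.97, 8.03 and 8.05, a difference of 0.73 (limma adjusted p = 0.136). Among the fits that left out 1 sample it passed without glioma replicate 3, at 0.89 (adjusted p = 0.0296).

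Of 22 kept cytokine receptors, 4 were called higher and 1 lower, beside 24 calls among all 384 kept genes. Ifngr1, the chain that binds interferon-γ, had levels of 13.37, 13.34 and 13.52 with glioma cells and 12.10, 12.13 and 12.22 without. Macrophage replicate 2 lay between its partners here, the difference was 1.26 (SE 0.08, limma adjusted p = 0.00154), and OT-1 cells alone stood between the co-cultures at 12.50 to 12.59. Il12rb2, a chain of the IL-12 receptor, gave 11.04, 11.03 and 10.82 against 9.98, 9.85 and 10.04. It differed by 1.01 (SE 0.09, limma adjusted p = 0.00509, and 0.0665 with the replicate block). Ifnar1, a chain of the type I interferon receptor, was at 11.84, 11.84 and 11.97 against 11.30, 11.07 and 11.28, a difference of 0.67 (limma adjusted p = 0.0355) that was lost in 8 of the 9 fits without 1 sample.

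Il7r, the α chain of the IL-7 receptor, stood at 10.64, 10.68 and 10.76 with glioma cells and 9.71, 9.80 and 9.69 with macrophages only. Its level with glioma cells nearly met that of OT-1 cells alone, 10.73 to 10.82, and the samples of those 2 groups overlapped. The difference between the co-cultures was 0.96 (SE 0.07, limma adjusted p = 0.00274).

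Il1rl1 encodes ST2, the receptor for IL-33, and moved the other way, with 6.0, 6.0 and 5.87 log2 units against 7.33, 8.03 and 7.13. Macrophage replicate 2, with about 41 raw counts, was the highest. The difference was -1.54 (SE 0.22, limma adjusted p = 0.0447) and -1.27 without that replicate (adjusted p = 0.00525). Every other fit without 1 sample lost the call. Il1rl1 was kept only through its level in the macrophage samples, and so had to be lower with glioma cells once it was kept. Tgfbr2, the TGF-β receptor chain, was called in 1 of those 9 fits, without macrophage replicate 2, at 0.49 (adjusted p = 0.0373), with levels of 11.28, 11.24 and 11.35 against 10.84, 10.49 and 10.76.

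Of 11 kept STAT, JAK and SOCS genes, 10 had positive differences, beside 282 of all 384 kept genes. Stat3 alone passed the test, beside 24 calls among the 384. Stat3, a transcription factor activated by IL-6 family and other cytokines, was at 12.60, 12.53 and 12.45 with glioma cells and 11.66, 11.31 and 11.58 without. Its difference of 1.01 (SE 0.11, limma adjusted p = 0.0136) became 0.91 without macrophage replicate 2, the lowest of the 3 macrophage samples. The call was lost in 6 of the 9 fits without 1 sample. Stat2 and Stat4, which act in interferon and IL-12 signalling, differed by 0.50 and 0.44, and Stat5b by 0.33, none of which passed.

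Interferon-stimulated genes gave 2 calls of 23 kept members, beside 24 among all 384 kept genes, and the 2 were neighbours. Ifitm1 and Ifitm2, whose membrane proteins restrict the entry of viruses, are next to each other with 0 coding genes between them in the RefSeq order of GRCm38.p6. Ifitm1 stood at 11.88, 11.84 and 11.96 log2 units with glioma cells and at 10.60, 10.77 and 10.54 without, a difference of 1.26 (SE 0.08, limma adjusted p = 0.00154). Ifitm2 stood at 12.55, 12.47 and 12.43 against 11.44, 11.47 and 11.42, a difference of 1.04 (SE 0.07, same adjusted p). Both were higher still in OT-1 cells alone, at 13.51 to 13.54 and 13.36 to 13.38. The 2 genes are close relatives, and whether their probes also bind the other transcript was not tested. Irf7 and Gbp5, induced by interferons, differed by 0.52 and 0.43 without passing. Above 0 were 22 of the 23 differences, beside 282 of all 384 kept genes, and the median was 0.23, beside 0.14.

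Of 5 kept genes of naive and memory-like T cells, 3 rose, beside 20 among all 384 kept genes, and the other 2 did not pass. Ccr7, the receptor that guides T cells into lymph nodes, had levels of 11.10, 10.92 and 10.97 with glioma cells and 9.24, 9.49 and 9.28 with macrophages only. The difference was 1.66 (SE 0.15, limma adjusted p = 0.00509, and 0.0548 with the replicate block), and OT-1 cells alone were lower than both, at 7.0 to 7.53. Il7r, given above, was another of the calls, and Tcf7, a transcription factor of naive and memory T cells, was at 10.03, 10.01 and 10.36 against 9.42, 9.51 and 9.41 without passing (0.69, limma adjusted p = 0.0894). The median of the list was 0.76, beside 0.14 for all kept genes.

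Among other trafficking genes, Cxcr6 and Itgb3 rose as well. Itgb3, the integrin β3 chain, stood at 9.73, 9.48 and 9.50 with glioma cells and 8.25, 8.17 and 8.32 without, with about 45 raw counts in macrophage replicate 2. It differed by 1.32 (SE 0.10, limma adjusted p = 0.00240). Cxcr6, the receptor for CXCL16, gave 13.09, 13.09 and 13.17 against 12.69, 12.59 and 12.56, the smallest difference among the calls at 0.50 (limma adjusted p = 0.0417, lost in 8 of the 9 fits without 1 sample), and was highest in OT-1 cells alone at 13.58 to 13.62.

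The chemokine receptor Cxcr3, which binds interferon-induced chemokines, had levels of 9.03, 9.09 and 9.41 with glioma cells and 9.87, 9.75 and 9.85 without, and did not pass at -0.65 (limma adjusted p = 0.0952). It did so without glioma replicate 3, at -0.76 (adjusted p = 0.0296). Cx3cr1, the fractalkine receptor, was at 8.26, 8.23 and 8.57 against 7.32, 8.07 and 7.52. Macrophage replicate 2 was the sample nearest to the glioma group, and the gene was called without it, at 0.93 (limma adjusted p = 0.0416). Of 21 kept integrins and adhesion molecules, 2 were called, beside 24 among all 384 kept genes. Selplg and F2rl1, at 0.50 and 0.48, did not pass.

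**Figure D3:**
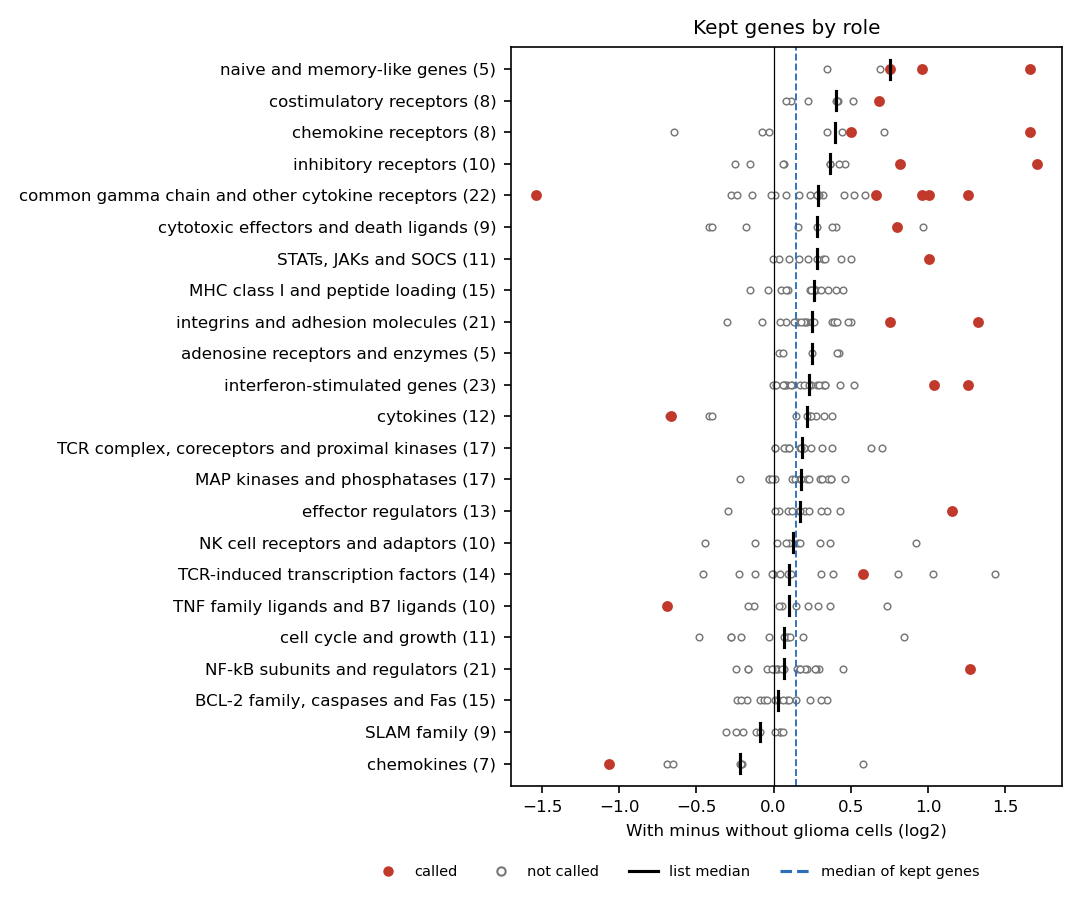
Differences between the co-cultures with and without glioma cells (horizontal axis, log2) of the kept genes in 23 lists by role, with the number of kept genes in brackets; filled red points are called genes, open points are not called, black bars are list medians and the dashed line is the median of the 384 kept genes, 0.14. The naive and memory-like genes had the highest list median, 0.76, and the chemokines the lowest, -0.22, which was -0.09 without macrophage replicate 2.

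Chemokines were the list that lay lowest, with a median of -0.22 and 6 of 7 kept members below 0. Of all 384 kept genes, 282 were above 0. Of the 7 chemokines 1 passed, beside 4 genes called lower among the 384. The median was -0.09 and 3 of the 7 were above 0 without macrophage replicate 2. Ccl1, the ligand of CCR8, fell to 11.32, 11.42 and 11.20 with glioma cells from 12.49, 12.42 and 12.23, a difference of -1.07 (SE 0.10, limma adjusted p = 0.00509). OT-1 cells alone were lower than both, at 10.75 to 10.83. Xcl1, the ligand of the dendritic cell receptor XCR1, had levels of 14.21, 14.30 and 14.04 against 14.72, 15.08 and 14.71. Its groups did not overlap, yet the difference of -0.65 did not pass (limma adjusted p = 0.195). Ccl5, a chemokine that attracts T cells, was the member above 0, at 0.58 (limma adjusted p = 0.0952). Ccl21a was kept only through macrophage replicate 2, where it read 8.43 against 6.01 and 6.50 in its partners. Its place below 0 was thus fixed once it was kept.

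Of 12 kept cytokines, Spp1 fell, beside 4 among all 384 kept genes, and the others did not pass. Spp1, which encodes the secreted protein osteopontin, stood at 13.10, 13.10 and 13.02 with glioma cells and 13.67, 13.72 and 13.83 without, and at 11.20 to 11.33 in OT-1 cells alone. It differed by -0.67 (SE 0.08, limma adjusted p = 0.0190), and 8 of the 9 fits without 1 sample lost the call. The inflammatory cytokines Tnf and Lta differed by -0.42 and -0.40, with limma adjusted p of 1.00 and 0.857. Ifng was at 10.30, 10.24 and 9.71 against 9.65, 9.91 and 9.55, so the groups overlapped, and the difference of 0.38 did not pass.

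Gzma was the only kept cytotoxic effector of 9 that passed, beside 24 among all 384 kept genes. Gzma, which encodes the protease granzyme A, had levels of 12.95, 12.94 and 12.82 with glioma cells and 11.98, 12.29 and 12.04 without, a difference of 0.80 (SE 0.10, limma adjusted p = 0.0235) that was lost in 8 of the 9 fits without 1 sample. OT-1 cells alone stood higher than both, at 14.47 to 14.51. Gzmb, the gene of granzyme B, gave 13.95, 13.89 and 13.31 against 12.65, 12.94 and 12.65, and was highest in OT-1 cells alone at 14.04 to 14.09. The groups did not overlap, but the spread with glioma cells was wide, and the difference of 0.97 (SE 0.18) had an adjusted p of 0.117. Without glioma replicate 3 it was 1.17 with a limma adjusted p of 0.0269, while Gzma then had an adjusted p of 0.0828. Prf1, the pore-forming perforin, overlapped between the groups and differed by 0.41, and the death ligand genes Fasl and Tnfsf10 differed by 0.28 and -0.18. None of these 3 passed the test.

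Receptors shared with NK cells gave 0 calls in limma among 10 kept members with all samples, where 1 had an unadjusted p under 0.05 and 0 passed Benjamini-Hochberg adjustment. Without macrophage replicate 2, 7 of the 10 had an unadjusted limma p under 0.05, 2 passed Benjamini-Hochberg adjustment and 1 was called. Over all 750 genes the numbers before and after that adjustment were 157 and 62 with all samples, and 232 and 110 without that replicate. The list median was 0.13 with all samples and 0.22 without that replicate, beside 0.14 and 0.16 for all kept genes. Klrk1, the gene of the activating receptor NKG2D, stood at 13.74, 13.75 and 13.80 with glioma cells and 13.60, 13.76 and 13.64 without. Klrc1, the gene of the inhibitory receptor NKG2A, stood at 12.79, 12.77 and 12.83 against 12.66, 12.88 and 12.60. For both genes the groups overlapped only through macrophage replicate 2, the highest of the macrophage samples. The 95% intervals of the differences ran from -0.07 to 0.26 for Klrk1 and from -0.14 to 0.30 for Klrc1. Without that replicate the differences were 0.14 and 0.17, and neither gene was called. In OT-1 cells alone Klrk1 was at 12.63 to 12.65 and Klrc1 at 11.60 to 11.73, below every co-culture sample.

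Klrd1, the partner chain of NKG2A, was among the most abundant transcripts, at 15.15, 15.22 and 15.32 against 14.60, 15.19 and 14.81, and did not pass at 0.36. Hcst, the adaptor of NKG2D, differed by 0.30, with 10.13 in macrophage replicate 2 against 9.28 and 9.69 in its partners. Cd7, an early T cell and NK cell surface protein, had levels of 6.89, 7.37 and 7.40 against 5.87, 7.43 and 5.60, and macrophage replicate 2, with about 27 raw counts, exceeded every glioma sample. It was called without that replicate (1.49, limma adjusted p = 0.0235) and not with it (0.92, adjusted p = 1.00). Cd7 was kept only through its level in the glioma samples, and so had to be higher with glioma cells once it was kept. Klra7 was kept through macrophage replicate 2, at 7.92 against 6.01 and 6.0 in its partners.

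Of the NF-κB subunits and regulators, 1 of 21 kept members was called, beside 24 among all 384 kept genes. The list median was 0.07, under the 0.14 of all kept genes, and 0.11 without macrophage replicate 2. Tnfaip3, whose product A20 restrains NF-κB signalling, was at 11.47, 11.21 and 11.34 with glioma cells and 10.19, 9.95 and 10.06 without. It differed by 1.27 (SE 0.10, limma adjusted p = 0.00350), and OT-1 cells alone lay lower, at 8.66 to 8.81. Nfkb2 and Rela, which encode subunits of the factor, and the kinase gene Ikbke differed by 0.29, 0.27 and 0.45 without passing. Nfkbia, the gene of the inhibitor IκBα, stood at 9.92, 9.86 and 9.84 against 9.92, 10.12 and 10.08, a difference of -0.17 that did not pass.

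Among transcription factors induced through the T cell receptor, Hif1a rose, beside 20 among all 384 kept genes, and 13 of 14 kept members did not pass. Hif1a, the hypoxia-inducible factor subunit, was at 12.56, 12.48 and 12.51 against 12.04, 11.82 and 11.96, a difference of 0.58 (SE 0.08, limma adjusted p = 0.0459) just inside the threshold and lost in 8 of the 9 fits without 1 sample. The macrophage samples overlapped OT-1 cells alone, at 11.83 to 11.95. Fos, a subunit of AP-1, gave 9.15, 8.12 and 8.42 against 6.34, 8.40 and 6.64, so macrophage replicate 2 lay within the glioma samples and the difference of 1.44 did not pass (limma adjusted p = 1.00). Without macrophage replicate 2 it was 2.07, with a limma adjusted p of 0.119. Jun, its partner, was at 8.71, 8.68 and 8.67 against 7.84, 7.32 and 7.81 and did not pass at 1.03 (limma adjusted p = 0.0903). Egr2, another gene switched on through the receptor, differed by -0.46 and did not pass.

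Cd69, the early activation marker included in this list, stood at 11.58, 11.16 and 11.28 against 10.45, 10.69 and 10.47. It was called without macrophage replicate 2 (0.88, limma adjusted p = 0.0492) and not with it (0.80, adjusted p = 0.0772). Among 13 kept regulators of effector differentiation, Ikzf2 was the call, beside 24 among all 384 kept genes. Ikzf2 encodes Helios, a factor of the Ikaros family, and was at 11.30, 11.25 and 11.37 with glioma cells, 10.06, 10.14 and 10.25 with macrophages only and 8.25 to 8.51 in OT-1 cells alone. The co-cultures differed by 1.16 (SE 0.10, limma adjusted p = 0.00374). Irf8 and Runx3 differed by 0.43 and 0.34, and neither passed.

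The T cell receptor complex and its kinases had 17 of 17 differences above 0, from 0.01 to 0.70, beside 282 of all 384 kept genes. Limma gave 0 calls among the 17 with all samples, where 7 had an unadjusted p under 0.05 and 3 passed Benjamini-Hochberg adjustment. Over all 750 genes, 157 and 62 did so. Txk, a TEC family kinase, was at 9.09, 9.08 and 9.06 against 8.54, 8.13 and 8.45, and was called without macrophage replicate 2 at 0.58 (limma adjusted p = 0.0153). Cd2, an adhesion and costimulatory molecule, was at 8.48, 8.28 and 8.44 against 7.75, 7.96 and 7.60, and was likewise called without that replicate, at 0.72 (limma adjusted p = 0.0395). The median of the list was 0.18, beside 0.14 for all kept genes. Without macrophage replicate 2, 14 of the 17 were above 0 with a lowest value of -0.11, and the list median of 0.10 lay under the 0.16 of all kept genes.

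No kept member passed in 6 further lists, which held 17 MAP kinase, 15 MHC class I, 15 BCL-2 family and caspase, 11 cell cycle, 9 SLAM family and 5 adenosine genes. At an unadjusted p under 0.05 limma gave 7, 10, 3, 4, 1 and 3 of them in that order, and 2, 2, 0, 0, 0 and 2 passed Benjamini-Hochberg adjustment. Over all 750 genes these numbers were 157 and 62. The list medians were 0.18, 0.26, 0.03, 0.07, -0.09 and 0.25. The SLAM median was 0.02 without macrophage replicate 2, with 5 of 9 members above 0. In the MHC class I list Cd1d1, Nlrc5 and H2-T23 had the highest values, at 0.45, 0.41 and 0.35. In the cell cycle list Cdkn1a, the gene of the inhibitor p21, differed by 0.85 with wide spread, and Cdk1 by -0.48. Cdk1 was kept only through the macrophage samples, so its sign was fixed once it was kept. The adenosine-producing ectoenzyme gene Nt5e and the peptidase gene Dpp4 differed by 0.42 and 0.41.

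Kit and Abcb1a rose outside these lists. Kit, the receptor for stem cell factor, stood at 9.52, 9.32 and 9.66 with glioma cells and 8.55, 8.78 and 8.54 without, a difference of 0.88 (SE 0.12, limma adjusted p = 0.0347) that was lost in 8 of the 9 fits without 1 sample. Abcb1a, which encodes the P-glycoprotein drug transporter, was at 9.22, 9.23 and 9.36 against 8.37, 8.20 and 8.43, with a difference of 0.94 (SE 0.09, limma adjusted p = 0.00663). Nrp1 and St6gal1, the genes of neuropilin-1 and a sialyltransferase, were lower with glioma cells by values of -0.72 and -0.68 without macrophage replicate 2, with limma adjusted p of 0.0343 and 0.0395. With it the differences were -0.65 and -0.57 and did not pass.

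**Figure D4:**
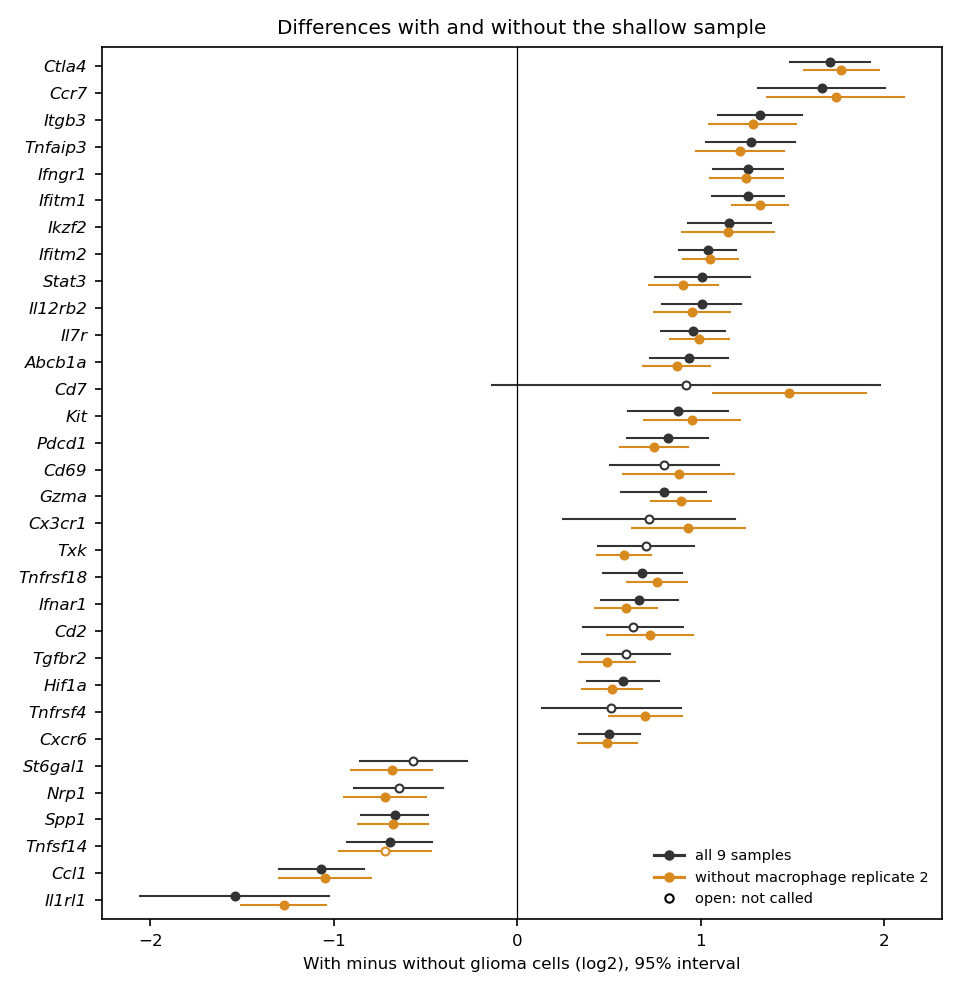
Difference between the co-cultures with and without glioma cells (horizontal axis, log2) with its 95% interval from limma, for 23 of the 24 called genes and the 9 kept genes called without macrophage replicate 2 but not with it; black marks use all 9 samples, orange marks leave that replicate out, and open marks are not called. The interval of Cd7 ran from -0.14 to 1.98 with all samples, and Tnfsf14 is the gene whose orange mark is open.

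The 24 called genes took 4 different positions against OT-1 cells alone. From low to high, 11 had the order OT-1 alone, macrophages, macrophages and glioma cells, among them Ccr7, Ctla4, Hif1a, Ikzf2, Itgb3, Kit, Pdcd1, Stat3, Tnfaip3 and Tnfrsf18. The 3 groups were fully separate for 9 of them, and for Ctla4 and Hif1a the macrophage samples overlapped OT-1 cells alone. Cxcr6, Gzma, Ifitm1, Ifitm2 and Il7r were lowest with macrophages and highest in OT-1 cells alone. Abcb1a, Ifnar1, Ifngr1 and Il12rb2 were lowest with macrophages and highest with glioma cells. The 4 genes that fell, Ccl1, Il1rl1, Spp1 and Tnfsf14, were highest with macrophages only and lowest in OT-1 cells alone. These positions describe the samples that also chose the genes and were not tested.

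Relative to each other the 3 glioma samples were close, with a median SD of 0.08 log2 units over the kept genes, against 0.14 for the macrophage samples and 0.06 for OT-1 cells alone. Among 256 genes with a mean of at least 8.64 in both co-cultures, 6 were over 0.5 log2 units lower in glioma replicate 3 than in the mean of its partners, and 0 were as far above. These 6, named after their values were seen, were Cdkn1a, Ccl4, Ccl3, Gzmb, Ifng and Prf1. They include the granule genes Gzmb and Prf1, interferon-γ and a pair of chemokines. The granule gene Gzma was not among them, at 12.95, 12.94 and 12.82 in the glioma samples. Cdkn1a stood at 9.95, 10.08 and 8.83, and Ccl4 at 9.55, 9.57 and 8.78. In the macrophage samples Ccl4 was at 9.44, 9.74 and 9.34, so the first 2 glioma samples lay inside that range and the third below it. Ccl3 gave 10.36, 10.28 and 9.55 against 10.28, 10.43 and 10.14.

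**Figure D5:**
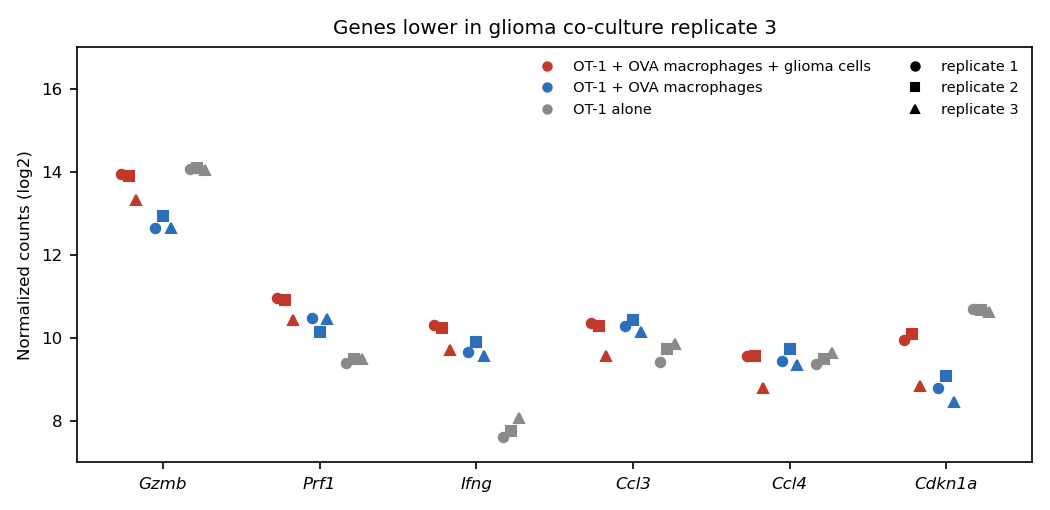
Levels (vertical axis, log2 normalized counts) of the 6 genes over 0.5 log2 units lower in glioma co-culture replicate 3 than in the mean of the other 2 glioma samples, in all 9 samples; colours are groups and symbols replicates. Gzmb in replicate 3 (13.31) still lies above the macrophage samples, and Ccl3 and Ccl4 in replicate 3 lie below them.

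The sorted cells carried the markers of CD8+ T cells in every sample. All 12 measured markers of these cells were kept, and the sample median of that list was 12.50 to 12.58 with glioma cells and 12.27 to 12.51 without. Of 36 measured macrophage markers 4 were kept. The log2 of the summed level of all 36 was 11.32 to 11.46 with glioma cells and 11.15 and 11.28 in macrophage replicates 1 and 3. It was 12.41 in replicate 2 and 10.71 to 11.04 in OT-1 cells alone. The list median was 4.855 to 5.10 with glioma cells, 4.495 and 4.66 in macrophage replicates 1 and 3 and 6.53 in replicate 2. It was 4.09 to 4.49 in OT-1 cells alone. The defining macrophage markers Csf1r and Itgam stood at 4.66 to 4.88 and 5.00 to 5.49 with glioma cells, under the level, and at 6.67 and 6.13 in macrophage replicate 2. Cd68, a lysosomal protein of macrophages, was at 7.98, 7.96 and 8.43 against 7.43, 8.32 and 7.57, and did not pass. Ccl2, also on this list and under the level, was called higher with glioma cells without macrophage replicate 2 and not with it. No other member of the list was called in either fit.

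Of 32 measured glioma or mesenchymal markers 9 were kept. The log2 of the summed level of all 32 was 15.23 to 15.31 with glioma cells and 15.41 to 15.49 without. In OT-1 cells alone it was 15.29 to 15.31. Abundant transcripts such as Vim and Spp1 weigh heavily in such a sum. The list median was 4.855 to 5.105 with glioma cells, 4.445 and 4.565 in macrophage replicates 1 and 3 and 6.92 in replicate 2. It was 4.145 to 4.76 in OT-1 cells alone. Genes not kept also lay higher with glioma cells without macrophage replicate 2, by a median of 0.18 log2 units. Vim, a filament protein of many cell types, stood at 13.90 to 13.96 with glioma cells and 13.73 to 13.94 without, whereas Egfr and Col1a1 were under the level with glioma cells, at 4.35 to 5.24 and 3.07 to 4.37. Kit and Spp1 belong to this list, and 1 rose while the other fell. The neutrophil marker S100a8 was at 7.78, 7.34 and 8.46 with glioma cells and 4.87, 8.10 and 6.46 without, and at 6.74 to 7.84 in OT-1 cells alone, and did not pass. It was kept only through the glioma samples, so the sign of its difference was fixed once it was kept. Of 16 B cell markers 1 was kept, of 15 dendritic cell markers 4 and of 13 CD4 T cell or NK cell markers 1. In these sorted samples fewer cells of a type and less RNA per cell cannot be told apart, and the part of other cells in the called differences was not tested.

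The level of 6.64 admitted 370 genes through both groups, 5 through the glioma samples only and 9 through the macrophage samples only. Klra7, Fas and Vegfa lay just inside, with higher means of 6.64, 6.68 and 6.73, and H2-Aa, Cd36 and Icosl just outside, at 6.60, 6.59 and 6.59. Without macrophage replicate 2 the level admitted 378 genes.

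Promoter sequences are shown for Ctla4, the gene with the highest difference, and for the 3 called genes with a match to the NF-κB consensus, since these went in both directions. Of the 24 called genes, 20 were listed in RefSeq's promoter table of GRCm38.p6, with 24 starts between them, and Ccr7, Ikzf2 and Itgb3 were among those not matched. Each sequence runs 5′ to 3′ on the gene's strand, from 250 bases before the start to 50 after it, and capitals mark the motif matches.
Ctla4 (chr1:60908775-60909074, plus strand): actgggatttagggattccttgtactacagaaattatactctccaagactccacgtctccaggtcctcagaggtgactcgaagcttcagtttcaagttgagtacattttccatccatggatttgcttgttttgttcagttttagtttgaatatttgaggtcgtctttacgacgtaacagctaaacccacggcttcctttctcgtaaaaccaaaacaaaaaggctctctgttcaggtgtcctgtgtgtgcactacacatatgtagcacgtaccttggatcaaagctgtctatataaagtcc
Tnfaip3 (chr10:19015361-19015660, minus strand): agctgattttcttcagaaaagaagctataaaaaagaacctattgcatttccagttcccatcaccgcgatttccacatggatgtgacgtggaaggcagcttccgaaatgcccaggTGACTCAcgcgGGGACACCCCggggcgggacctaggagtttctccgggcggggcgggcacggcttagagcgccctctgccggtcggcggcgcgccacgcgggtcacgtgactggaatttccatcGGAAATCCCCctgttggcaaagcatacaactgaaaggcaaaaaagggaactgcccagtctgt
Il12rb2 (chr6:67376139-67376438, minus strand): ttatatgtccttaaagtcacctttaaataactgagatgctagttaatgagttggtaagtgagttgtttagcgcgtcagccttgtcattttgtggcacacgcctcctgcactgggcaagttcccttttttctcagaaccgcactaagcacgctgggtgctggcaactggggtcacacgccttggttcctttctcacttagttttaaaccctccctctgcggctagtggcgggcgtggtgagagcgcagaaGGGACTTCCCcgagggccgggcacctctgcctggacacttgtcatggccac
Ccl1 (chr11:82179763-82180062, minus strand): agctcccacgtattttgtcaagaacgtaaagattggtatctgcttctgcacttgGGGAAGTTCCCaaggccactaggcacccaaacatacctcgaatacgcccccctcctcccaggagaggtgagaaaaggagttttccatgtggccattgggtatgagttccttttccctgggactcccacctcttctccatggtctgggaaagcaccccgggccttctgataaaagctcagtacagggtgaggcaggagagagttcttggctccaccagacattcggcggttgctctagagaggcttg

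The motifs searched, on both strands, were the AP-1 motif TGANTCA, the EGR motif GCGNGGGCG and the NF-κB consensus. The start shown for Tnfaip3, which rose, held an AP-1 match and a pair of NF-κB matches. Of the 2 starts listed for Tnfaip3 it was chosen for having the most matches, and the other held none. Il12rb2, which rose, held an NF-κB match across its start, and Ccl1, which fell, held overlapping NF-κB matches on both strands, while the Ctla4 window held none of the 3 motifs. Over all 32851 promoters of the table, 7.81% held the AP-1 motif, 5.55% the EGR motif and 8.46% the NF-κB consensus. Among the 24 starts of the called genes the numbers were 2, 1 and 3, with Tnfsf14 the other AP-1 match and Ifnar1 the EGR match. Tnfaip3 and Ifngr1, which rose by similar amounts, lie on the same chromosome with 1 coding gene between them in the RefSeq order.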

How the data were processed

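Transcripts of 9 sorted T cell samples were counted without amplification by barcoded probes on an nCounter. Per the methods, normalization by the authors used nSolver 4.0.70, and their tests, with Benjamini-Yekutieli adjustment, Advanced Analysis 2.0.134. What the authors deposited are log2 values of normalized counts for 750 genes, rounded to 2 decimals. Reference genes and raw counts were not used here. The stated cell ratios differ between the methods and the labels, and the labels' were given. Symbols were used as deposited, and 734 are current and 8 older in RefSeq's GRCm38.p6 table.

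Depth was recovered from the steps between values under 30 normalized counts, of which 90.0% to 100.0% were whole multiples within the rounding of the table. Replicate pairs differed by more than sampling noise (1.94 to 25.6 in chi-square for each degree of freedom), and each sample was counted once.

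The groups were fitted in limma 3.58.1 (R 4.3.3, lmFit and eBayes, all 9 samples, no filter on low values), and two-sided p-values were adjusted over 750 genes at 0.05. The procedure was tested on simulated data. A gene was kept where its mean reached 6.64 in either co-culture. Named were the kept genes called with all samples or without macrophage replicate 2, up to 4 kept members of each of 23 role lists by size of difference, Klrk1, Klrc1, Gzmb, Fasl, Tnfsf10 and Prf1, leading and defining members of 7 marker lists and genes next to the level, and a few others were added after their values were seen. A few genes of these lists, 1 called gene among them, are not reported here. The members and lists were chosen with earlier results of these data known. Alternatives covered the samples fitted, leaving out each sample, a replicate block, normalization, low values, the level, sample weights, the spread and the adjustment.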

Additional observations from a re-analysis of the deposited data

How the results depend on the processing

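With all 9 samples 20 kept genes were higher and 4 lower. Leaving out 1 sample at a time gave 10 to 27 higher and 1 to 5 lower, and a median difference of 0.128 to 0.164 over the kept genes, beside 0.143. Limma on the 6 co-culture samples, centring on the median of all genes, the t-test with Benjamini-Yekutieli adjustment and, added after seeing the data, the 5 co-culture samples without macrophage replicate 2 each gave 0 higher and 0 lower, although 106, 62, 136 and 201 genes had an unadjusted p under 0.05 and 18, 3, 38 and 47 passed Benjamini-Hochberg adjustment. Centring on the kept genes gave 12 higher and 6 lower, and quantile normalization 15 and 9. Raising values under 100 counts to that level gave 37 and 5, fitting only kept genes 55 and 9, sample weights (a fit that stopped before convergence) 105 and 17, a trended robust spread 52 and 8, Benjamini-Hochberg adjustment 52 and 9, and the t-test with it 35 and 3. Without macrophage replicate 2 and centred on the kept genes, a setting also added later, there were 15 and 9. Moving the level by 1 log2 unit or using the mean of all 9 samples changed the 24 calls by at most 1 gene. The median difference was 0.328, -0.0433 and -0.0126 after centring on all genes, on kept genes and quantile normalization. With the replicate number as a block there were 9 higher and 1 lower. The labels do not say that a number marks a shared batch. Deviations of same-numbered samples correlated at 0.275, 0.324 and 0.0727 over all genes and at 0.164, 0.304 and 0.25 over the kept genes, where different numbers gave -0.346 to 0.059, so whether the numbers pair the samples was not settled, and 14 of the 24 calls were lost under the block. Depth limits the genes of few counts in macrophage replicate 2, the causes of the other changes were not tested, and 3 samples a group limit the precision of all.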

Other observations

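Of the genes under the level, 2 were called without macrophage replicate 2, and neither was called with it. Ccl2 is a chemokine that attracts monocytes and a member of the macrophage marker list. It stood at 5.98, 6.22 and 6.33 log2 units with glioma cells. With macrophages only it was at 4.44, 5.48 and 4.46, where replicate 2 rests on about 7 raw counts. The difference was 1.73 without that replicate (limma adjusted p = 0.0157) and 1.38 with it (adjusted p = 0.250), and OT-1 cells alone were at 3.25 to 3.83. Rora, which encodes a nuclear receptor, was at 6.07, 6.17 and 6.35 with glioma cells and at 5.20, 6.76 and 5.20 with macrophages only, so the groups overlapped through replicate 2. Its difference was 1.00 without that replicate (limma adjusted p = 0.0343) and 0.48 with it (adjusted p = 1.00).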
